A study of Mus musculus with 6 samples.

Results

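Voltage-gated sodium channels carry the inward current that starts and propagates the action potential. The voltage-gated sodium channel genes described here were 9 named genes of the 54429 rows in the count files, chosen by gene symbol, and all 9 were among the 24419 genes with enough counts to be tested. They comprised 4 pore-forming alpha subunit genes (Scn1a, Scn2a, Scn3a and Scn8a), 3 beta subunit genes (Scn2b, Scn3b and Scn4b) and 2 genes of intracellular fibroblast growth factors that bind the channels (Fgf12 and Fgf14). Bulk RNA of mouse prefrontal cortex had been profiled in 3 libraries from mice injected with AAV9 (an adeno-associated virus) carrying a short hairpin RNA against Kmt5b, and in 3 libraries from mice injected with AAV9 carrying green fluorescent protein (GFP). The mice were 6 to 8 weeks old and are given as C57BL6/J in the labels and as a cross of C57BL/6 with C3H in the design text. Both groups carried the AAV9 vector, the labels name no scrambled hairpin, and the promoter that drives either insert is not given in the sources used here. The design text counts 2 control mice against 3 GFP libraries, so a pair of GFP libraries may share a mouse, in which case the p-values reflect the variation among libraries, not mice.

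An alpha subunit forms the sodium-selective pore and the voltage sensors. Beta subunits are single-pass membrane proteins with an immunoglobulin-like domain that alter the gating and surface level of the pore and act in cell adhesion. The products of Scn2b and Scn4b are joined to the alpha subunit by a disulphide bond, while that of Scn3b binds without one. The intracellular fibroblast growth factors are not secreted and bind the cytoplasmic tail of the alpha subunit. In cortex Scn1a is best known from parvalbumin interneurons, and Scn2a and Scn8a from the axon initial segment of excitatory neurons. Scn3a and Scn3b are prominent in immature brain.

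Of the 9 genes, Scn1a and Scn4b fell and Scn3b rose in the libraries labelled Kmt5b shRNA, and the other 6 did not pass the test (edgeR quasi-likelihood test, Benjamini-Hochberg adjusted p under 0.05 over all genes). The estimated change was -33.8% for Scn1a, -35.8% for Scn4b and 33.7% for Scn3b. Across all tested genes 8.46% were called, 5.69% lower and 2.77% higher. Among the 6185 protein-coding genes of similar abundance (average log2 CPM of at least 5, where CPM is the counts-per-million value after TMM scaling), 6.35% were called, 1.08% lower and 5.27% higher. The median log2 fold change of the 9 genes was -0.05, against -0.02 for all genes tested and 0.04 for the protein-coding genes of similar abundance. DESeq2 called the same 3 members, where it called 9.89% of genes.

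Total counts were 48828638 to 57486203 in the Kmt5b shRNA libraries and 29490771 to 74723284 in the GFP libraries, where replicate 2 had the fewest. Kmt5b, the targeted gene, which encodes a histone H4 methyltransferase linked to autism, was at 68.5, 80.3 and 63.9 CPM in the Kmt5b shRNA libraries, against 86.5, 79.7 and 80.9 CPM in the GFP libraries. Replicate 2 of the Kmt5b shRNA group lay within the GFP range, and the log2 fold change of -0.22 ± 0.10 (SE) had an edgeR adjusted p of 0.303, so each direction here rests on the labels. Reads can be assigned to the wrong one of 2 genes that share sequence, so 11955 protein-coding genes that share no long sequence with another protein-coding gene or pseudogene were also fitted alone. That fit called 0.962% of its genes, 77 higher and 38 lower. Protein-coding genes fitted alone gave 471 higher and 184 lower, against 676 higher and 1390 lower in the fit of all genes. The shares called over all genes thus depend on which genes are fitted. The part of misassigned reads in these calls was not tested.

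Scn1a encodes Nav1.1, the alpha subunit whose loss causes Dravet syndrome in people. It lies on chromosome 2 from 66270778 to 66440840 (mm10) on the minus strand. Scn1a was at 204.5, 221.6 and 183.0 CPM in Kmt5b shRNA replicates 1 to 3, against 300.4, 344.8 and 275.5 CPM in GFP replicates 1 to 3. Every Kmt5b shRNA library lay below every GFP library, and GFP replicate 2, the library with the fewest total counts, was the highest of the 6. Groups did not overlap for 4 of the 9 members, against 22.5% of all genes tested and 22.9% of protein-coding genes of similar abundance. Group levels were 203.0 ± 19.4 CPM in the Kmt5b shRNA libraries and 306.9 ± 35.1 CPM in the GFP libraries (mean ± SD of 3 per group). The log2 fold change was -0.60 ± 0.11 (SE) with a 95% interval from -0.83 to -0.36 and an edgeR adjusted p of 0.00188. An exact permutation test (two-sided) gave 0.1 here and for Scn3b, Scn4b and Scn8a, which is the lowest p available with 3 libraries per group. Since the tissue was bulk cortex, fewer cells of a type and less RNA per cell cannot be told apart in any of these values.

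Among the remaining alpha subunit genes, none passed the test. Scn8a encodes Nav1.6, the main channel of nodes of Ranvier and of the distal axon initial segment. Scn8a was at 416.0, 398.6 and 402.5 CPM in the Kmt5b shRNA libraries, against 444.9, 497.8 and 459.3 CPM in the GFP libraries. The groups did not overlap, but the log2 fold change of -0.20 ± 0.10 (SE) had an edgeR adjusted p of 0.296 and a 95% interval from -0.41 to 0.00. Scn2a encodes Nav1.2, which is strongly linked to autism. Scn2a was at 800.7, 921.9 and 756.6 CPM in the Kmt5b shRNA libraries, against 939.8, 794.8 and 838.3 CPM in the GFP libraries. These ranges overlapped, and the 95% interval of the Scn2a change ran from -18.3% to 13.7% (edgeR adjusted p = 0.886). Scn3a, which encodes Nav1.3, was at 102.5, 116.4 and 93.7 CPM in the Kmt5b shRNA libraries, against 112.8, 102.1 and 101.7 CPM in the GFP libraries. Its interval ran from -15.3% to 15.0% (edgeR adjusted p = 0.963).

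Scn1a, Scn2a and Scn3a lie in a cluster on chromosome 2, where Scn2a spans 65620771 to 65767447 on the plus strand and Scn3a 65457118 to 65567627 on the minus strand. Of these 3 genes Scn1a alone was called, with log2 fold changes of -0.60 for Scn1a, -0.05 for Scn2a and -0.02 for Scn3a. Likewise, Scn2b at 45117782 to 45130070 on chromosome 9 ends upstream of the start of Scn4b on the same strand, with log2 fold changes of -0.11 for Scn2b and -0.64 for Scn4b. The 250 bases before the RefSeq start of Scn1a and before the upstream RefSeq start of Scn2a (GRCm38.p6) are shown. These promoters, of a called and an uncalled gene of the cluster, are printed 5′ to 3′ on the strand of the gene, with CG dinucleotides in capitals. They cover chr2:66440838-66441087 on the minus strand for Scn1a and chr2:65620519-65620768 on the plus strand for Scn2a.
Scn1a: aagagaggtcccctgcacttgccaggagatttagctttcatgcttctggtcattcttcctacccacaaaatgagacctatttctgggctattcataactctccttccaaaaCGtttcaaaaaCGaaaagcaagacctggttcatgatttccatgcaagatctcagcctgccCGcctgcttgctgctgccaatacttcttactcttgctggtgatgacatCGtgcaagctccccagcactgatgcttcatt
Scn2a: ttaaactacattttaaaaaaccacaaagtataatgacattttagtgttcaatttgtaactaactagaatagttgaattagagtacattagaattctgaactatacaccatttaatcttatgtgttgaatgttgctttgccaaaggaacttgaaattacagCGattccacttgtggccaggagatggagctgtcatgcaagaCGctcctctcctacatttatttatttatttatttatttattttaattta
Scn1a held 4 CG dinucleotides and 46.8% G or C, and Scn2a held 2 and 29.6%, against medians of 6 and 52.4% over 32851 such windows. The corresponding Scn4b window, on chromosome 9 from 45138374 to 45138623, held 23 CG dinucleotides and 66.0% G or C, more CG dinucleotides than 86.7% of windows. Of its bases, 229 lie inside the GENCODE gene, so its letters are not shown. The windows were searched on both strands for the CCAAT box (CCAAT, in 33.8% of all windows), the TATA box (TATAAA, in 12.4%) and the GC box (GGGCGG, in 32.7%). They were also searched for the left part (CAGCACC, in 5.73%) and the right part (GGACAGC, in 5.28%) of the element bound by the neuronal repressor REST, and no motif contains another. The CCAAT box was found before Scn1a and Scn4b, and no motif before this Scn2a start. A further RefSeq start of Scn2a lies downstream, and its window (65668436 to 65668685) is wholly inside the GENCODE gene. That window held 9 CG dinucleotides, 53.2% G or C and a TATA box, so the Scn2a values depend on the start chosen.

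Scn4b encodes the beta 4 subunit, whose cytoplasmic tail is linked to resurgent sodium current in fast-firing neurons. It lies on chromosome 9 from 45138395 to 45154152 on the plus strand. Scn4b was at 44.9, 48.6 and 40.9 CPM in the Kmt5b shRNA libraries, against 77.0, 65.2 and 67.2 CPM in the GFP libraries. The groups did not overlap, and the highest Kmt5b shRNA library was well below the lowest GFP library. Group levels were 44.8 ± 3.88 CPM in the Kmt5b shRNA libraries and 69.8 ± 6.3 CPM in the GFP libraries (mean ± SD of 3 per group). The log2 fold change was -0.64 ± 0.10 (SE) with a 95% interval from -0.86 to -0.42 and an edgeR adjusted p of 0.000509.

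Scn3b encodes the beta 3 subunit and lies on the same chromosome from 40269217 to 40291618 on the plus strand. Scn3b was at 154.3, 156.1 and 151.5 CPM in the Kmt5b shRNA libraries, against 124.1, 108.6 and 112.6 CPM in the GFP libraries. Its Kmt5b shRNA values were all above the GFP values and close to each other. Group levels were 153.9 ± 2.32 CPM in the Kmt5b shRNA libraries and 115.1 ± 8.07 CPM in the GFP libraries (mean ± SD of 3 per group). The log2 fold change was 0.42 ± 0.09 (SE) with a 95% interval from 0.22 to 0.62 and an edgeR adjusted p of 0.00813. Without Kmt5b shRNA replicate 1 the Scn3b adjusted p was 0.0531, at a log2 fold change of 0.42, and Scn3b passed when any other single library was dropped.

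Scn2b, which encodes the beta 2 subunit, did not pass either. It was at 391.4, 412.6 and 338.7 CPM in the Kmt5b shRNA libraries, against 463.3, 405.9 and 365.4 CPM in the GFP libraries. Replicate 3 was the lowest library of each group, and the Scn2b change had a 95% interval from -21.9% to 9.73% (edgeR adjusted p = 0.727). The Scn2b transcript was the only member transcript with a match of at least 100 nucleotides at 90% identity to another gene. It had such matches to 215 genes, the longest of them 203 nucleotides, so Scn2b does not count as a gene sharing no sequence and was left out of that fit.

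Neither intracellular partner passed the test, and their groups overlapped. Fgf12 was at 196.2, 239.6 and 185.6 CPM in the Kmt5b shRNA libraries, against 223.8, 191.2 and 184.4 CPM in the GFP libraries, and its 95% interval ran from -12.8% to 23.2% (edgeR adjusted p = 0.898). Fgf14 was at 63.4, 79.0 and 63.3 CPM in the Kmt5b shRNA libraries, against 74.5, 64.1 and 68.4 CPM in the GFP libraries, and its interval ran from -15.6% to 16.9% (edgeR adjusted p = 0.984). Kmt5b shRNA replicate 2 was the highest of the 6 libraries for both genes. Fgf14 shares 220 of its 4182 exonic bases with the antisense gene model Gm28932, and the strand setting of the counting is not given in the sources used here.

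**Figure D1:**
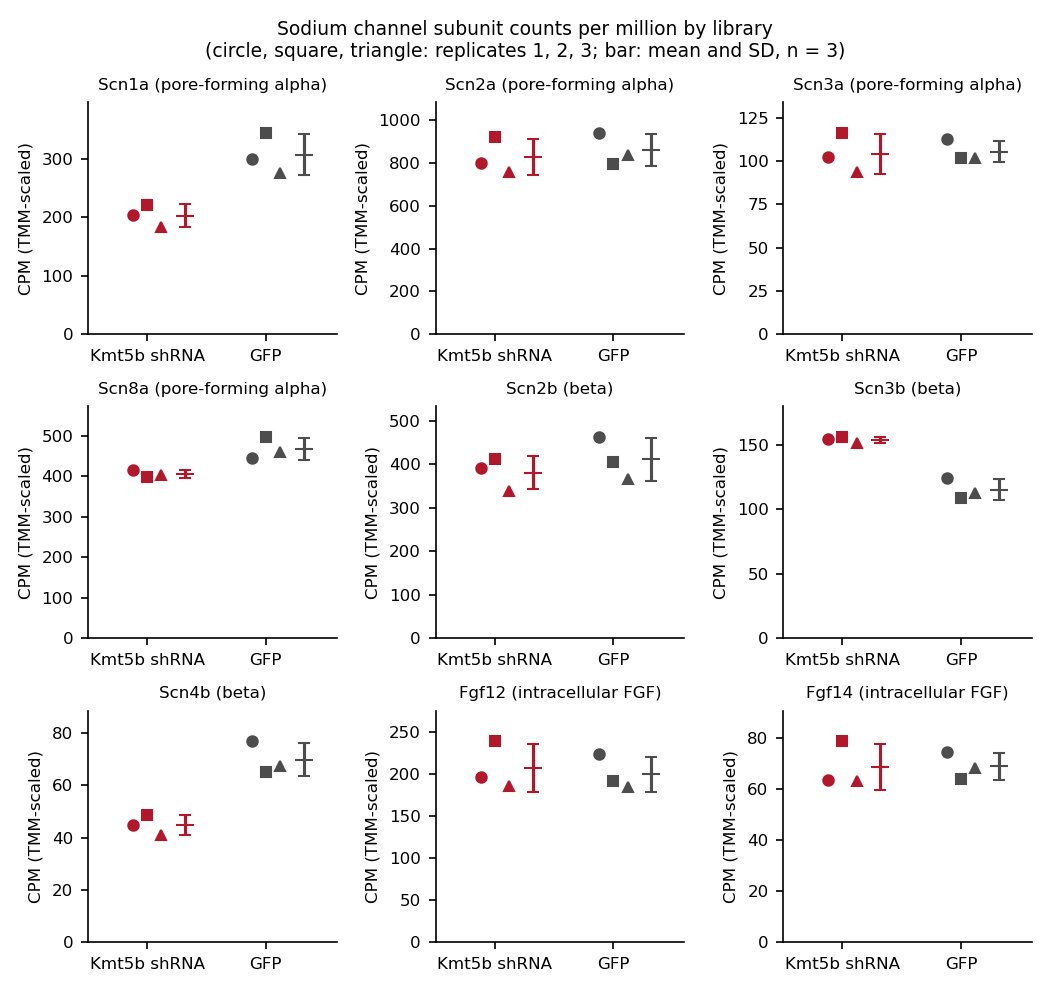
CPM (vertical axis from 0) of each of the 9 genes in the 3 Kmt5b shRNA libraries and the 3 GFP libraries; symbols mark replicates 1, 2 and 3, and the bar beside them is the mean with SD (n = 3). Scn1a, Scn4b and Scn8a lie lower in every Kmt5b shRNA library than in any GFP library, Scn3b lies higher, and the other 5 genes overlap.

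**Figure D2:**
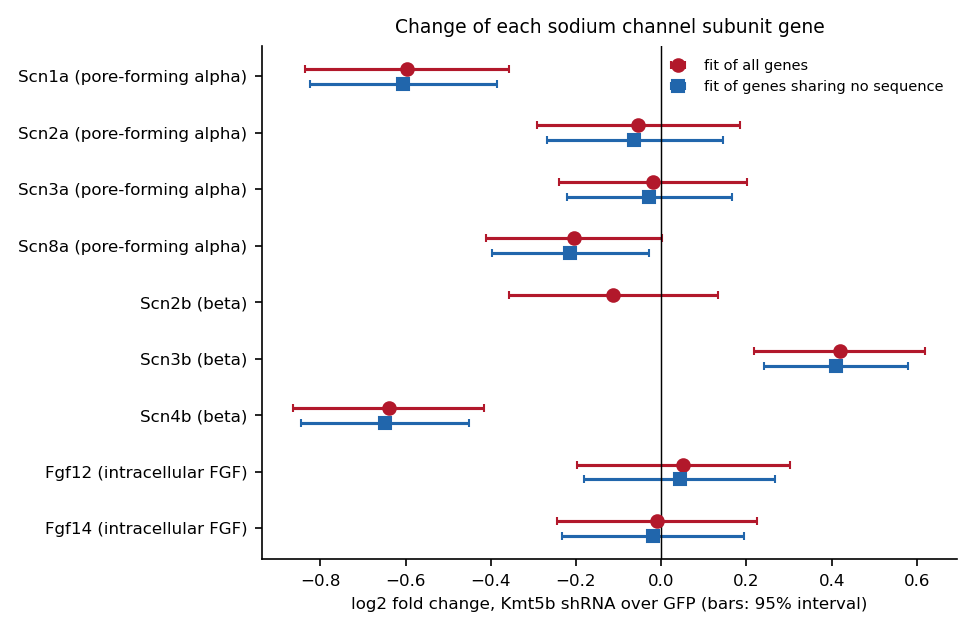
Log2 fold change of each gene, Kmt5b shRNA over GFP, with its 95% interval (horizontal axis); circles are from the fit of all 24419 genes and squares from the fit of 11955 genes sharing no sequence, which holds no Scn2b. The intervals of Scn1a, Scn4b and Scn3b lie away from 0 in both fits, and the Scn8a interval reaches 0.00 in the fit of all genes.

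The 3 called members also passed when only genes sharing no sequence were fitted. There edgeR gave Scn1a a log2 fold change of -0.61 ± 0.10 (SE, adjusted p = 0.0165), Scn4b one of -0.65 ± 0.09 (SE, adjusted p = 0.00644) and Scn3b one of 0.41 ± 0.08 (SE, adjusted p = 0.0319). With each library left out of that fit in turn, Scn4b passed in 5 of 6 fits, Scn1a in 3 and Scn3b in 1. The highest adjusted p came without Kmt5b shRNA replicate 1 for all 3 genes, at 0.0533 for Scn4b, 0.112 for Scn1a and 0.159 for Scn3b. Scn1a also missed the threshold at 0.0602 without Kmt5b shRNA replicate 3 and at 0.0567 when GFP replicate 2 was dropped. Scn3b passed there without GFP replicate 1 (adjusted p = 0.0239) and missed it without Kmt5b shRNA replicates 2 and 3 (0.0605 and 0.0862) and without GFP replicates 2 and 3 (0.0957 and 0.123). The direction of the 3 genes was the same in all of these fits. In the fit of all genes, dropping any single library left both Scn1a and Scn4b called, at no more than 0.0177 for Scn1a and 0.00612 for Scn4b.

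**Figure D3:**
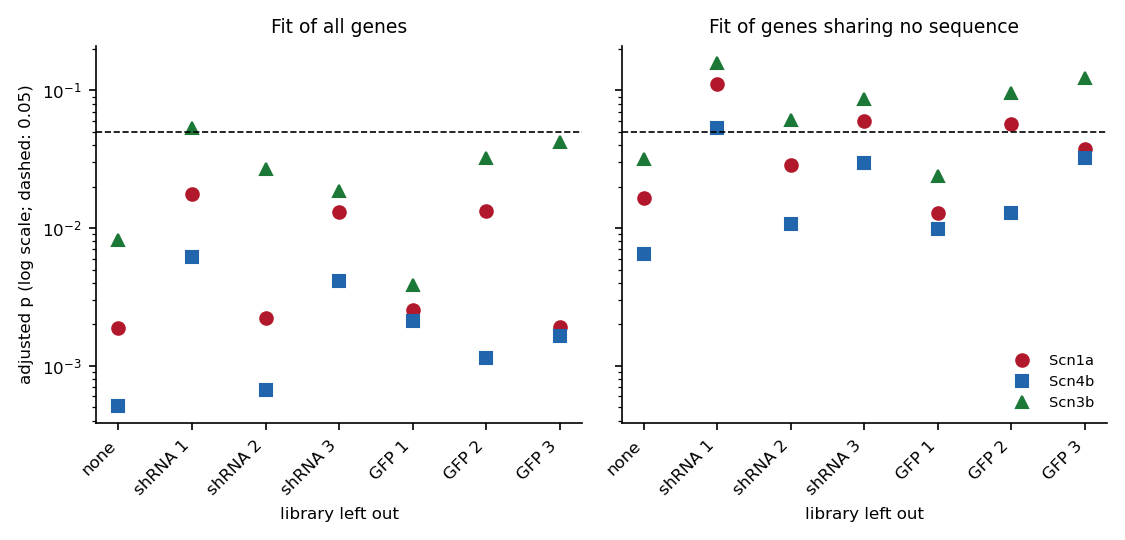
Adjusted p (log axis) of Scn1a, Scn4b and Scn3b with no library or 1 library left out, in the fit of all genes (left) and among genes sharing no sequence (right); the dashed line is 0.05. With all genes fitted, 1 point lies above the line, Scn3b at 0.0531 without Kmt5b shRNA replicate 1, and in the other fit the points rise, up to 0.159 for Scn3b.

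Levels of different genes were compared as CPM per kilobase of exonic length, averaged over the 6 libraries. Scn2b was highest at 85.1 ± 9.19 and Scn2a followed at 66.1 ± 5.79 (SD, n = 6). Fgf12 at 32.8 ± 3.68, Scn8a at 27.7 ± 2.44, Scn3b at 24.6 ± 4.01 and Scn1a at 22.9 ± 5.59 CPM per kilobase came next. Fgf14 was at 16.4 ± 1.58, Scn4b at 11.5 ± 2.9 and Scn3a at 8.42 ± 0.665 CPM per kilobase. The ranges of neighbours in this order overlapped everywhere except between Scn2a and Fgf12. These ranges run over all 6 libraries and do not compare genes within a library. The order of Scn8a, Scn3b and Scn1a held in neither group taken alone. In the Kmt5b shRNA libraries Scn3b averaged 28.2, Scn8a 25.7 and Scn1a 18.2 CPM per kilobase, while in the GFP libraries Scn8a averaged 29.6, Scn1a 27.5 and Scn3b 21.1. Scn4b was thus the least abundant of the 3 beta genes, and Scn1a was below Scn2a and Scn8a among the alpha genes.

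Shares within a library do not depend on how libraries are scaled. Of the 4 alpha genes per exonic length, Scn1a made up 15.8%, 15.7% and 15.1% in the Kmt5b shRNA libraries, against 19.5%, 23.2% and 19.3% in the GFP libraries. The Scn1a shares did not overlap between groups, and Scn2a was higher in share, at 54.3%, 57.1% and 54.6% in the Kmt5b shRNA libraries against 53.5%, 46.9% and 51.5% in the GFP libraries. Scn3a was also higher in share, at 7.1%, 7.36% and 6.9% in the Kmt5b shRNA libraries against 6.56%, 6.15% and 6.39% in the GFP libraries. Shares within a class are bound to each other, so a lower share of Scn1a raises others, and neither Scn2a nor Scn3a passed the test in CPM. The Scn8a share overlapped, at 19.9% to 23.4% in the Kmt5b shRNA libraries and 20.4% to 23.7% in the GFP libraries. Of the 3 beta genes, Scn4b made up 7.43%, 7.69% and 7.55% in the Kmt5b shRNA libraries, against 11.2%, 10.9% and 12% in the GFP libraries. Scn3b made up 23.3%, 22.5% and 25.5% in the Kmt5b shRNA libraries, against 16.5%, 16.5% and 18.3% in the GFP libraries. The 2 beta genes that moved thus did so in opposite directions, and the ratio of Scn3b to Scn4b per exonic length was 3.13, 2.93 and 3.38 in the Kmt5b shRNA libraries against 1.47, 1.52 and 1.53 in the GFP libraries. The shares and ratios are descriptions with no test, since the genes were chosen with earlier results known.

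As classes, the alpha genes summed to 1524, 1658 and 1436 CPM in the Kmt5b shRNA libraries, against 1798, 1740 and 1675 CPM in the GFP libraries. The groups did not overlap for this sum, as was so for 22.5% of all genes tested. The alpha sum includes Scn1a, the only alpha gene called. Taken singly, Scn2a and Scn3a overlapped in CPM while Scn8a did not, and a sum without Scn1a was not tested. The beta genes summed to 590.6, 617.3 and 531.0 CPM in the Kmt5b shRNA libraries, against 664.4, 579.6 and 545.2 CPM in the GFP libraries, and overlapped. Both classes hold only the listed genes, so other alpha and beta genes are not in these sums. The ratio of summed beta to summed alpha genes, per exonic length, was 1.05, 1.00 and 0.998 in the Kmt5b shRNA libraries, against 0.998, 0.902 and 0.881 in the GFP libraries. That ratio averaged 1.01 ± 0.0277 in the Kmt5b shRNA libraries and 0.927 ± 0.0622 in the GFP libraries (SD over 3 per group), and the value of GFP replicate 1 nearly met that of Kmt5b shRNA replicate 3. The sum of Fgf12 and Fgf14 overlapped, at 248.9 to 318.6 CPM in the Kmt5b shRNA libraries and 252.8 to 298.3 CPM in the GFP libraries. The ratio of their sum to that of the alpha genes, per exonic length, did not overlap, at 0.404, 0.453 and 0.414 in the Kmt5b shRNA libraries against 0.391, 0.347 and 0.360 in the GFP libraries. This ratio and that of beta to alpha genes both divide by the alpha sum, which includes Scn1a.

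**Figure D4:**
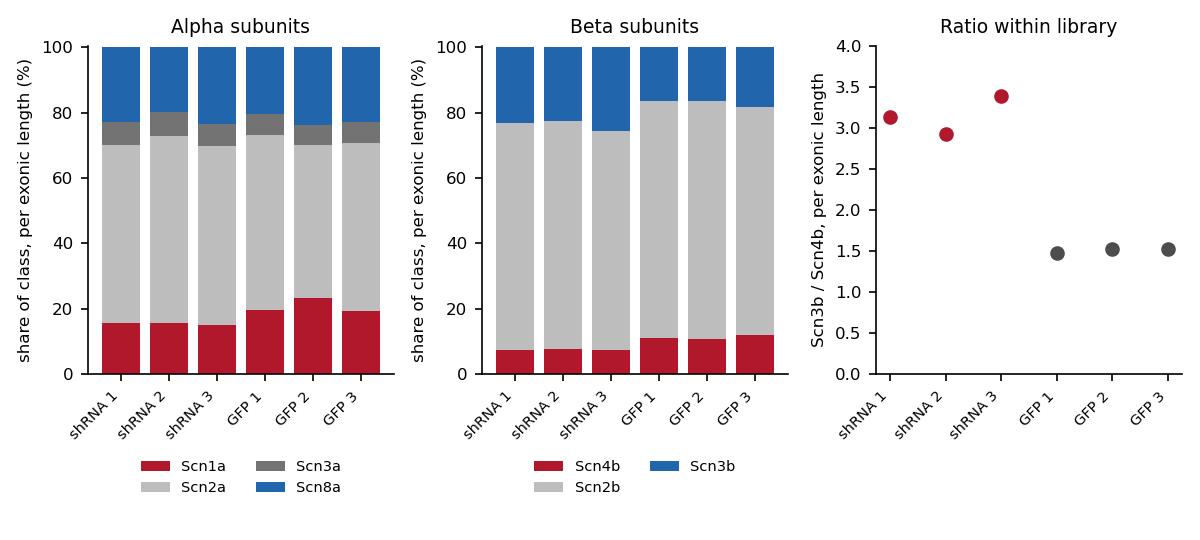
Share of each gene in its class per exonic length (stacked bars, percent, axis from 0) for the 4 alpha genes and the 3 beta genes in each library, and the ratio of Scn3b to Scn4b per exonic length (points). The Scn1a and Scn4b shares (red) are smaller in the Kmt5b shRNA libraries, and the Scn3b to Scn4b ratio is 2.93 to 3.38 there against 1.47 to 1.53 in the GFP libraries.

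The list of other sodium channel genes and partners held 31 genes, of which 29 were tested. Of these 0 were called higher and 1 lower, against 2.77% and 5.69% of all genes tested. Their log2 fold changes were above 0 for 15 and below 0 for 14, with a median of 0.01. Cntnap1, a paranodal adhesion protein that borders the nodes of Ranvier, was the called gene. Cntnap1 was at 129.6, 107.2 and 115.8 CPM in the Kmt5b shRNA libraries, against 153.5, 153.7 and 162.0 CPM in the GFP libraries, a log2 fold change of -0.41 ± 0.10 (SE, edgeR adjusted p = 0.0134). Cntnap1 missed the threshold without Kmt5b shRNA replicate 2 (0.0691), Kmt5b shRNA replicate 3 (0.0596) or GFP replicate 3 (0.0603), and among genes sharing no sequence (0.0574). Ank3, which encodes the ankyrin that anchors sodium channels at the axon initial segment, was at 571.3, 575.8 and 643.4 CPM in the Kmt5b shRNA libraries against 538.4, 732.9 and 589.7 CPM in the GFP libraries (edgeR adjusted p = 0.892). The intracellular partner Fgf13 was at 45.3 ± 0.534 CPM in the Kmt5b shRNA libraries and 43.6 ± 4.35 CPM in the GFP libraries (edgeR adjusted p = 0.861). The other 9 of 10 axon initial segment and node genes and all 9 channel regulators missed the threshold.

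Marker genes of the cell types that carry these channels were read from the same fit, where 8.46% of all genes tested were called. Of 8 parvalbumin interneuron markers, Pvalb itself fell, at 22.1, 23.3 and 23.7 CPM in the Kmt5b shRNA libraries against 34.9, 39.3 and 29.1 CPM in the GFP libraries (log2 fold change -0.58 ± 0.12 SE, edgeR adjusted p = 0.00329). The other 7 markers of that list did not pass, with log2 fold changes from -0.51 to 0.26, and the median of the 8 was -0.03. The list summed to 685.2 to 730.9 CPM in the Kmt5b shRNA libraries and 716.5 to 812.6 CPM in the GFP libraries. Among 4 neurofilament genes Nefm fell, at 72.8, 74.2 and 71.2 CPM in the Kmt5b shRNA libraries against 106.2, 131.5 and 91.9 CPM in the GFP libraries (log2 fold change -0.59 ± 0.12 SE, edgeR adjusted p = 0.00329). The neurofilament genes summed to 485.7 to 568.0 CPM in the Kmt5b shRNA libraries and 555.5 to 724.3 CPM in the GFP libraries, and all 4 had a log2 fold change below 0. Nefh, named after its values were seen, had the lowest log2 fold change of the 4 at -0.76 ± 0.20 (SE), with no overlap between groups and an edgeR adjusted p of 0.0622. GFP replicate 2 was the highest library for Pvalb and Nefm as it was for Scn1a and Scn8a, and without it the Scn1a log2 fold change was -0.50 with an adjusted p of 0.0134. The part of these markers in the Scn1a and Scn4b results was not tested.

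Of 8 pan-neuronal markers 0 passed, and they summed to 8015 to 9179 CPM in the Kmt5b shRNA libraries and 8200 to 9802 CPM in the GFP libraries. Per 1000 CPM of these markers, Scn1a was at 24.0, 24.1 and 22.8 in the Kmt5b shRNA libraries against 30.6, 42.0 and 33.6 in the GFP libraries. Scn4b was at 5.27, 5.30 and 5.10 in the Kmt5b shRNA libraries against 7.85, 7.95 and 8.19 in the GFP libraries, on the same scale. Scn3b was at 18.1, 17.0 and 18.9 in the Kmt5b shRNA libraries against 12.7, 13.2 and 13.7 in the GFP libraries. Relative to these markers, the groups did not overlap for any of the 3 genes. These genes were picked because they were called, and their groups already did not overlap in CPM. The ratio to these markers is thus a description and no separate test. Of 6 GABA neuron markers 0 passed and 5 were below 0, with a median of -0.08. Their sum was 706.0, 685.1 and 622.4 CPM in the Kmt5b shRNA libraries against 785.6, 758.2 and 735.2 CPM in the GFP libraries, with no overlap. Of 6 excitatory neuron markers 0 passed, with a median of 0.10 and sums of 2823 to 3105 CPM in the Kmt5b shRNA libraries and 2537 to 2997 CPM in the GFP libraries. Scn4b is abundant in striatum, and of 10 striatal markers Pde10a rose (log2 fold change 0.44 ± 0.10 SE, edgeR adjusted p = 0.0104) and 0 were called lower. Of these 10 markers 4 were above 0 and 6 below, with a median of -0.08. Among the lower ones, Ppp1r1b and Penk had log2 fold changes of -0.40 and -0.41 (edgeR adjusted p = 0.118 and 0.212). The striatal list summed to 219.4 to 236.4 CPM in the Kmt5b shRNA libraries and 205.9 to 221.0 CPM in the GFP libraries. Pde10a alone gave 118.7, 105.0 and 123.5 CPM of these sums in the Kmt5b shRNA libraries, against 90.8, 87.8 and 77.6 CPM in the GFP libraries. Among 6 deep layer neuron markers Etv1 rose (log2 fold change 0.52 ± 0.12 SE, edgeR adjusted p = 0.0117), and the list summed to 400.2 to 500.2 CPM in the Kmt5b shRNA libraries and 360.3 to 436.2 CPM in the GFP libraries. Pde10a missed the threshold without Kmt5b shRNA replicate 1 (0.0684) or GFP replicate 3 (0.0685) and among genes sharing no sequence (0.0535), and Etv1 without GFP replicate 3 (0.0659).

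Of 8 astrocyte markers the water channel gene Aqp4 and the gap junction gene Gja1 fell, with log2 fold changes of -0.64 ± 0.12 and -0.51 ± 0.12 (SE, edgeR adjusted p = 0.00178 and 0.0114). The other 6 did not pass, and of all 8 markers 7 were below 0 and 1 above, with a median of -0.165. Gja1 missed the threshold without Kmt5b shRNA replicate 3 (0.0614) or GFP replicate 3 (0.0533). The astrocyte list summed to 4211 to 4798 CPM in the Kmt5b shRNA libraries against 4908 to 5055 CPM in the GFP libraries, with no overlap. Much of this sum was Slc1a2, at 2417 to 2884 CPM in the Kmt5b shRNA libraries and 2784 to 2988 CPM in the GFP libraries (edgeR adjusted p = 0.554). The 8 oligodendrocyte markers, whose cells make the myelin around nodes rich in Scn8a, were all below 0 with a median of -0.41, and 0 passed. Mog, also named after its values were seen, was lowest at -0.73 ± 0.24 (SE), with no overlap between groups and an edgeR adjusted p of 0.142. Their sums were 1524, 2765 and 3221 CPM in the Kmt5b shRNA libraries against 4244, 2771 and 3046 CPM in the GFP libraries, so that the groups overlapped and Kmt5b shRNA replicate 1 was the lowest library. The oligodendrocyte precursor, microglia and endothelial lists had 0 of 6 called each. Their sums were 235.7 to 276.9, 399.0 to 526.0 and 242.7 to 263.7 CPM in the Kmt5b shRNA libraries, against 241.6 to 251.5, 388.3 to 508.5 and 226.4 to 256.0 CPM in the GFP libraries. Every marker had at least 1 count in every library, and the part of these lists in the sodium channel results was not tested.

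**Figure D5:**
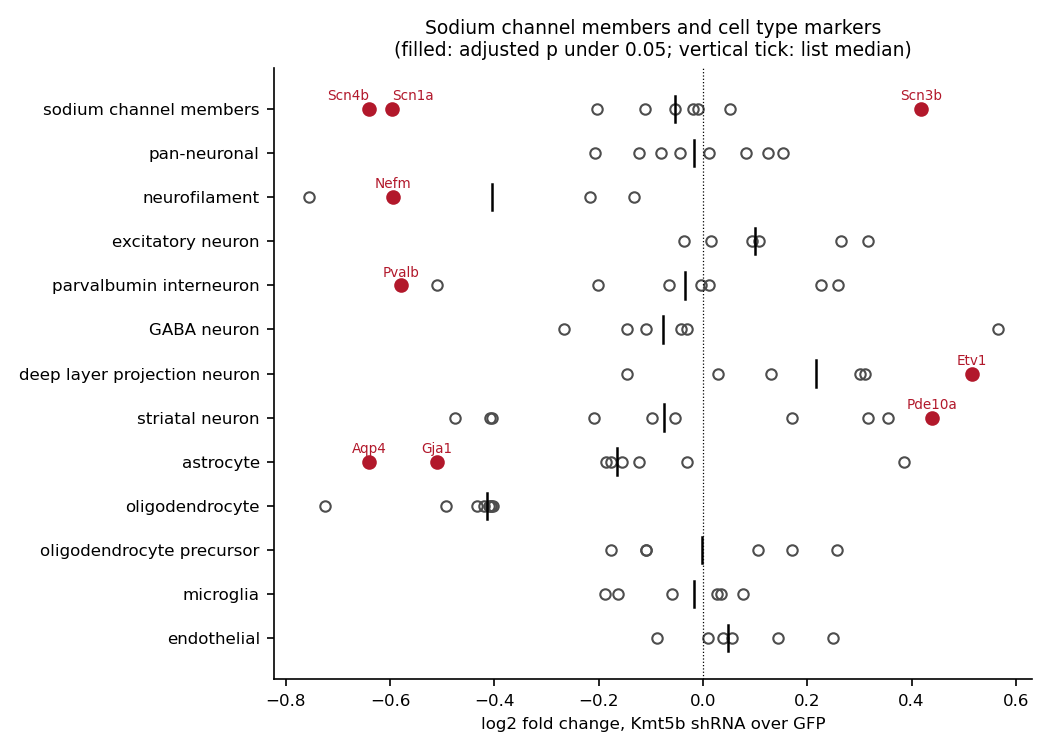
Log2 fold change, Kmt5b shRNA over GFP (horizontal axis), of the 9 sodium channel genes (top) and of each cell type marker list; filled red points passed at an adjusted p under 0.05, open points did not, and vertical ticks are list medians. Scn1a and Scn4b lie near Pvalb, Nefm and Aqp4, the open points of Nefh (-0.76) and Mog (-0.73) lie lower, while the other 7 markers of the parvalbumin list spread from -0.51 to 0.26.

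The genes whose centred log2 CPM profile over the 6 libraries lay closest to that of each called gene were ranked by root-mean-square difference. For Scn1a these were Fads6 (0.0766), Abat (0.0791), Nefm (0.0849), Rtl8a (0.0871) and Mtmr11 (0.0892). Abat encodes the enzyme that degrades GABA, and was at 198.4, 210.5 and 166.1 CPM in the Kmt5b shRNA libraries against 259.7, 285.1 and 241.9 CPM in the GFP libraries. For Scn4b they were St3gal4 (0.0715), Mettl7a1 (0.0931), Sdc4 (0.0958), Anxa6 (0.0969) and Syt3 (0.102). Sdc4, a cell surface proteoglycan, was at 47.5, 45.7 and 36.1 CPM in the Kmt5b shRNA libraries against 75.4, 69.4 and 68.7 CPM in the GFP libraries. For Scn3b they were Rfwd3 (0.0338), Dnajc19 (0.0347), Fhl2 (0.0373), Nwd2 (0.0384) and Zfp697 (0.0398), which had log2 fold changes of 0.39 to 0.44. This likeness is over 6 libraries that share 1 contrast, carries no test, and is a description of these libraries.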

How the data were processed

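Raw read counts per gene symbol were deposited for 6 libraries of mouse prefrontal cortex, as whole numbers in 54429 rows. The library kit, per the labels' protocols, keeps strand and depletes ribosomal RNA; Cutadapt trimming and TopHat2 alignment to mouse RefSeq mRNAs are also given there. The submitters' processing notes instead list STAR with featureCounts and DESeq2, and the build mm10; versions and settings are not given in the sources used here. Sample titles gave the groups and the replicate numbers. Counts were filtered by filterByExpr, scaled by TMM and tested with edgeR 4.0.16 in R 4.3.3 (robust quasi-likelihood, legacy=TRUE), with Benjamini-Hochberg adjustment over all genes. SE is the absolute log2 fold change over the square root of F, and intervals use 95% confidence. Exonic lengths and positions came from GENCODE M21, whose symbols matched 53825 rows, and promoter windows from RefSeq (GRCm38.p6), where Scn3a and Scn3b are not listed.

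Shared sequence was found with BLAST+ 2.17.0 on the longest transcript per gene, at 90% identity over 200 nucleotides or 50% of the shorter transcript. Library pairs within a group differed by a chi-square per gene of 18.2 to 45.0, so none was merged. On simulated counts with known changes, the share of false calls was above the 0.05 threshold. Alternatives were DESeq2 1.42.0, RLE scaling, other filters, other gene sets, a replicate block and each library left out. The members, lists and rules for named genes were chosen with earlier results of these data known. Named were all members, Kmt5b, called partners with Fgf13 and Ank3, called or abundant markers, and the 5 nearest profiles (pseudocount 0.01, average log2 CPM of at least 1, unnamed gene models and pseudogenes passed over). One further gene that the rule names is not reported here.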

Additional observations from a re-analysis of the deposited data

How the results depend on the processing

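Scn1a and Scn4b kept their direction and passed in all 13 alternatives run on them, with log2 fold changes from -0.67 to -0.50 and from -0.70 to -0.56. Scn3b passed in 12 of 13, between 0.38 and 0.48, and missed the threshold without Kmt5b shRNA replicate 1. Scn8a and Scn2b stayed below 0 and did not pass in any. The number of the 9 genes called was 3 under every alternative with all libraries, and 2 to 3 with 1 library left out. Leaving out 1 library from the fit of genes sharing no sequence was added after seeing the data and is not among the 13. It gave 0 to 3 called genes: 0 without Kmt5b shRNA replicate 1, and 1 each when its replicate 3 or GFP replicate 2 was dropped.

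Genes that did not pass changed sign near 0, with no call. Fgf14 (-0.01) had 0.001 with DESeq2 and 0.001 with RLE scaling and ran from -0.122 to 0.054 with a library left out. Left-out ranges were -0.139 to 0.02 for Scn2a, -0.105 to 0.062 for Scn3a and -0.065 to 0.144 for Fgf12. Among genes sharing no sequence the sign also changed for Fgf14 (0.032 without Kmt5b shRNA replicate 1, 0.029 without its replicate 3, 0.021 without GFP replicate 1), Fgf12 (-0.061 without Kmt5b shRNA replicate 2) and Scn3a (0.037 without Kmt5b shRNA replicate 3, 0.004 without GFP replicate 1).

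Over all genes 676 were higher and 1390 lower. The fit of genes sharing no sequence called 77 higher and 38 lower, and the fit of protein-coding genes only called 471 higher and 184 lower. Both tested fewer genes, and in both the higher calls outnumbered the lower ones, unlike in the fit of all genes. With 1 library left out 467 to 822 were higher and 1229 to 1510 lower. Partner genes called were 2 with no filter on low counts, 0 among genes sharing no sequence and 0 to 2 with a library left out. The log2 ratio of beta to alpha genes was 0.13 higher in the Kmt5b shRNA libraries, and 0.10 to 0.19 with a library left out.

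With the replicate number as a block, 704 genes were higher and 1507 lower and the same 3 members passed. Deviations of same-numbered libraries correlated at -0.08, -0.12 and 0.37, and not every library correlated best with its own number. No steady pairing by number was seen, but so few values cannot show whether the samples were paired.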
